A study of Mus musculus with 4 samples.

Results

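Mitosis and spindle genes were compared between Atoh1-GFP and dNeurog1-GFP cells of the mouse neural tube. The set was a list of 51 named genes that act between entry into mitosis and the separation of the daughter cells, and each gene was read through its probe set with the highest mean signal over the 4 arrays. Of the 51 genes, 50 had a probe set with a single gene symbol among 18193 such genes in all, and 49 passed the filter on low signal and were among the 12733 genes tested. Ccnb1 (cyclin B1) had no probe set carrying its symbol alone, so its expression was not analysed here, and only its promoter enters below. Kif15 fell below the filter.

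The cells were sorted by GFP from neural tubes dissected between fore- and hindlimb at E10.5 (embryonic days), and each population was measured on 2 arrays. The Atoh1-GFP cells came from Atoh1BAC-GFP embryos, in which a bacterial artificial chromosome places GFP in the Atoh1-derived cells of dorsal interneuron 1 (dI1). The dNeurog1-GFP cells came from dNeurog1-GFP embryos, in which an enhancer of Neurog1 places GFP in the dorsal cells of dorsal interneuron 2 (dI2). Both lines were on a mixed B6SJLF1 and ICR background and both carried a GFP transgene. The labels name no control without a transgene, and the sources used here do not give the number of embryos pooled. The labels call the samples GFP sorted without saying outright that the GFP-positive fraction was used, and they are read here as GFP-positive.

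Cells of the early neural tube divide at its inner surface, leave the cell cycle and move outwards as neurons. Most mitotic genes are transcribed only in cycling cells, from late S phase to mitosis: cyclin-dependent kinase 1 with cyclins A and B starts mitosis, kinetochores couple the chromosomes to spindle microtubules, and the anaphase-promoting complex then triggers separation and the destruction of the cyclins. A lower signal in a sorted population can mean fewer cells in the cycle or less of each RNA per cell, and these arrays cannot tell the 2 apart.

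The deposited signals had trimmed means of 250.001 on both replicate 1 arrays and of 500.003 on both replicate 2 arrays, so all arrays were first scaled to a trimmed mean of 500. After scaling, the median signals were 138 and 76.0 for Atoh1-GFP against 115 and 75.4 for dNeurog1-GFP, so the replicate numbers still differed in their distributions. Where the replicates disagree, differences within replicate 1 and within replicate 2 are given. The scaled signal of Atoh1, the target of the reporter line, was 21412 and 19675 in Atoh1-GFP cells, against 1771 and 1861 in dNeurog1-GFP cells. That of Neurog1 was 172 and 176 in Atoh1-GFP cells, against 1388 and 2469 in dNeurog1-GFP cells. Each gene was higher in the population labelled with its name.

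Nearly the whole mitotic set was lower in Atoh1-GFP cells. The median log2 difference of the 49 genes, Atoh1-GFP minus dNeurog1-GFP on log2(scaled signal + 32), was -0.61, with -0.66 within replicate 1 and -0.57 within replicate 2, against 0.01 over all genes tested. On this scale the median corresponds to 65.7% of the dNeurog1-GFP level. The quartiles were -0.74 and -0.47 in the mitotic set, and -0.23 and 0.22 over all genes. The difference was negative in 48 of the 49 genes, and in 47 of 49 it was negative within both replicate numbers, which held for 33.7% of all genes tested. In 43 of 49 both Atoh1-GFP arrays lay below both dNeurog1-GFP arrays, which held for 18.8% of all genes.

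The number of genes that passed the test depended on whether the replicate number entered the model. With limma and no replicate block, 0 of the 49 genes passed an adjusted p of 0.05 (adjusted p from 0.16 to 1.00), and 0.22% of all genes did. At an unadjusted p under 0.05, 31 of the 49 were lower without the block, against 5.09% of all genes. With the replicate number as a block, which compares the populations within each scaling target, 26 of the 49 were lower at adjusted p under 0.05 and 0 were higher. Over all genes 3.64% were lower and 2.69% higher in that model. The standard errors ran from 0.17 to 0.41 without the block and from 0.11 to 0.20 with it. The block leaves 1 residual degree of freedom per gene, so its p-values rest largely on the spread shared across genes, and on simulated data a larger share of its calls was false than the threshold states, also larger than without the block. The main test was limma without the block, so the 26 genes are not a result of the main test. In that test Birc5 had the smallest adjusted p of the set, 0.16, and Ect2 the next, 0.23. Mad2l1, the gene with the lowest difference, had 0.30. In what follows a gene "passed" where limma with the replicate block gave an adjusted p under 0.05. The standard errors and adjusted p given for single genes below also come from the fit with the block.

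**Figure D1:**
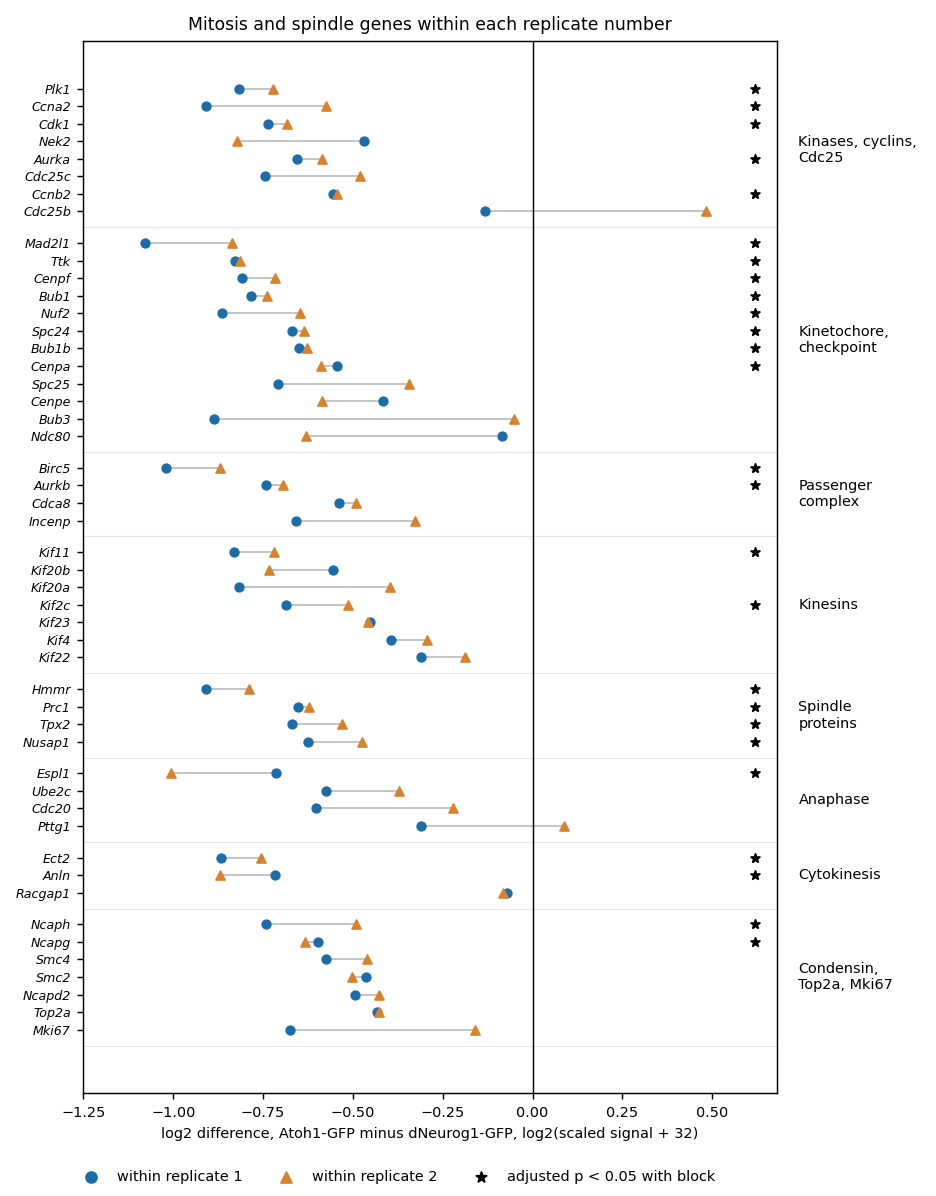
Log2 differences (Atoh1-GFP minus dNeurog1-GFP, x axis, in log2 of scaled signal + 32) of the 49 tested genes by role, within replicate 1 (circles) and within replicate 2 (triangles). Stars mark the 26 genes that passed with the replicate block. Nearly all points lie left of 0, and Cdc25b and Pttg1 have their replicates on opposite sides of it.

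Many promoters of this set hold short sequence elements known from cell cycle genes, the class from which the set was picked. Their shares are given as description only. The cell cycle genes homology region (CHR) is the element bound by the MuvB complex, which represses these genes in resting cells and, with B-Myb and FoxM1, activates them late in the cycle, and CCAAT boxes bind NF-Y. RefSeq promoter windows of GRCm38.p6, from 250 bases before to 50 after the annotated start, were found for 43 of the 51 genes. A CHR, searched on both strands as TTTGAA or TTCGAA, was present in 34 of the 43 (79.1%), against 21.7% of the 27025 genes in the table. A CCAAT on either strand was present in 32 of the 43 (74.4%), against 41.1% of all genes. Both motifs were present in 29 (67.4%), against 8.61%. Matches of the motifs were counted independently of each other, and a match is a run of letters, not a shown binding site. Of the genes that passed, 22 had a window and 17 of these held a CHR, as did 16 of the 19 windows of tested genes that did not pass. The genes with a window but no match to either CHR sequence searched were Ccnb1, Nek2, Mad2l1, Cenpe, Nuf2, Birc5, Nusap1, Pttg1 and Ncaph. They include the pair with the lowest differences, Mad2l1 and Birc5. Whether the share with a CHR differed by call was not tested.

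Windows from 150 bases before to 30 after the start are shown for 4 genes that passed (Cdk1, Espl1, Hmmr and Prc1) and for 2 with the same elements whose populations overlapped (Cdc25b and Racgap1). Capitals mark CHR and CCAAT matches on either strand (a CCAAT on the opposite strand reads ATTGG), and each sequence runs 5′ to 3′ on the gene's strand. In GRCm38.p6 they lie, for Cdk1 at chr10:69352883-69353062 (- strand), for Espl1 at chr15:102296143-102296322 (+ strand), for Hmmr at chr11:40733408-40733587 (- strand), for Prc1 at chr7:80294301-80294480 (+ strand), for Cdc25b at chr2:131186798-131186977 (+ strand) and for Racgap1 at chr15:99651627-99651806 (- strand).
Cdk1 promoter: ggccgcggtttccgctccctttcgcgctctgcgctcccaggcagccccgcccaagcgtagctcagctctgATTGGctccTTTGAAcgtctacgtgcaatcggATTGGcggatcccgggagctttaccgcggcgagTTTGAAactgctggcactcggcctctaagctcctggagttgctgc
Espl1 promoter: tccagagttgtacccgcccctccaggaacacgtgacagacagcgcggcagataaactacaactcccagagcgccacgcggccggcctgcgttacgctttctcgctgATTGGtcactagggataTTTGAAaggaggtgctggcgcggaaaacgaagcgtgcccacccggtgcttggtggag
Hmmr promoter: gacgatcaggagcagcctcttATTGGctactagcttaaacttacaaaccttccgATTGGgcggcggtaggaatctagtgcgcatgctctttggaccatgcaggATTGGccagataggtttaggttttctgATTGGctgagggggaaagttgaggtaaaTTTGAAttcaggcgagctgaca
Prc1 promoter: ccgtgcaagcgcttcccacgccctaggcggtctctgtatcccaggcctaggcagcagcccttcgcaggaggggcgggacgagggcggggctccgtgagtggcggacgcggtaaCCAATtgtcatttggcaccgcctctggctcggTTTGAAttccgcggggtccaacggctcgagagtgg
Cdc25b promoter: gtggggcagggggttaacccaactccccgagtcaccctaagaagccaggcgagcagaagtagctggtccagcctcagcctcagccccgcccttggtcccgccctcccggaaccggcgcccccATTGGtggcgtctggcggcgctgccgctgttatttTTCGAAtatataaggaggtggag
Racgap1 promoter: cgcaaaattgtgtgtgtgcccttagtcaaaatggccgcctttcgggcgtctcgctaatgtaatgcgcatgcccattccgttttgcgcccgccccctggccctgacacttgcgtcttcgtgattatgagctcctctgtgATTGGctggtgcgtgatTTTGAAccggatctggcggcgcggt
Cdk1 carries 2 CHR and 2 CCAAT matches in this stretch and Hmmr 1 CHR and 4 CCAAT. The other 4 promoters carry 1 of each. In Cdk1, Espl1, Hmmr, Cdc25b and Racgap1 every CCAAT match is on the opposite strand (ATTGG), and in Prc1 it is on the gene's strand. In each window the last CHR lies downstream of every CCAAT match.

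Among the mitotic kinases, cyclins and Cdc25 phosphatases, 5 of the 8 tested genes passed, all lower in Atoh1-GFP cells, and the median log2 difference was -0.63. Plk1, the polo-like kinase of mitotic entry and spindle assembly, had scaled signals of 1278 and 1376 in Atoh1-GFP cells against 2276 and 2289 in dNeurog1-GFP cells. On the log2 scale its difference was -0.77 (SE 0.12, adjusted p = 0.023), with -0.82 within replicate 1 and -0.72 within replicate 2. Both Atoh1-GFP arrays lay well below both dNeurog1-GFP arrays, and the arrays of each population differed little. Ccna2, the cyclin A of S phase and G2, had 2346 and 2844 in Atoh1-GFP cells against 4434 and 4250 in dNeurog1-GFP cells, giving a log2 difference of -0.74 (SE 0.13, adjusted p = 0.031). Cdk1, the kinase that drives entry into mitosis, had 2725 and 2764 in Atoh1-GFP cells against 4558 and 4456 in dNeurog1-GFP cells, giving a log2 difference of -0.71 (SE 0.11, adjusted p = 0.024). The groups did not overlap for either gene, and the Cdk1 signals were nearly equal within each population. Aurora kinase A, Aurka (-0.62), which matures the centrosomes, and cyclin B2, Ccnb2 (-0.55), also passed. Nek2 (-0.65, adjusted p = 0.057), a kinase of centrosome separation, and the phosphatase Cdc25c (-0.61, adjusted p = 0.096) missed the threshold.

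Cdc25b, the Cdc25 phosphatase that starts Cdk1 activation in G2, was the exception of the set. Its scaled signals were 2701 and 4908 in Atoh1-GFP cells against 2965 and 3504 in dNeurog1-GFP cells, so that the populations overlapped. The log2 difference was 0.17 (SE 0.17, adjusted p = 0.59), -0.13 within replicate 1 and 0.48 within replicate 2. Its sign rested on the Atoh1-GFP replicate 2 array, without which it was -0.25. Of 3 related genes outside the set, 1 passed: Wee1, a kinase that holds Cdk1 inactive, at -0.82 (adjusted p = 0.041). The phosphatase of S phase entry, Cdc25a, had -0.41 (adjusted p = 0.13). Pkmyt1, listed with them, had -0.08 (adjusted p = 0.92), with 0.71 within replicate 1 and -0.86 within replicate 2.

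Kinetochore and spindle checkpoint genes were the largest of the role groups. All 12 tested genes had both Atoh1-GFP arrays below both dNeurog1-GFP arrays, 8 passed, and the median was -0.65. Mad2l1, the Mad2 protein that holds back anaphase until the chromosomes are attached, had the lowest difference of the 49 genes. Its scaled signals were 2234 and 3434 in Atoh1-GFP cells against 4749 and 6164 in dNeurog1-GFP cells, giving a log2 difference of -0.96 (SE 0.12, adjusted p = 0.013), with -1.08 within replicate 1 and -0.84 within replicate 2. Replicate 2 read higher than replicate 1 in both populations, and the gap between the populations was similar in both. Ttk, the checkpoint kinase Mps1, had 754 and 731 in Atoh1-GFP cells against 1364 and 1311 in dNeurog1-GFP cells, giving a log2 difference of -0.82 (SE 0.13, adjusted p = 0.025). Cenpf, a large protein of the outer kinetochore that accumulates in G2, had 2415 and 2184 in Atoh1-GFP cells against 4258 and 3610 in dNeurog1-GFP cells, giving a log2 difference of -0.76 (SE 0.11, adjusted p = 0.020).

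The checkpoint kinase Bub1 (-0.76), its relative Bub1b (-0.64), the centromeric histone Cenpa (-0.57) and the Ndc80 complex subunits Nuf2 (-0.76) and Spc24 (-0.65) also passed. Spc24 was -0.38 without the Atoh1-GFP replicate 2 array and -0.36 without the dNeurog1-GFP replicate 1 array. Of the other subunits of the Ndc80 complex, which binds microtubule ends, Spc25 (-0.53, adjusted p = 0.080) and Ndc80 itself (-0.36, adjusted p = 0.36) missed the threshold. Ndc80 had 368 and 384 in Atoh1-GFP cells against 393 and 612 in dNeurog1-GFP cells, so the gap lay nearly all within replicate 2 (-0.63, against -0.09 within replicate 1). Bub3, a checkpoint adaptor, had 3406 and 5950 in Atoh1-GFP cells against 6323 and 6172 in dNeurog1-GFP cells, with the gap nearly all within replicate 1 (-0.89, against -0.05 within replicate 2) and adjusted p = 0.24. Cenpe, a kinetochore motor, had -0.50 (adjusted p = 0.079).

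The chromosomal passenger complex, which corrects faulty attachments and later guides cytokinesis, had 4 tested genes, all without overlap of the populations, and 2 passed. Birc5 (survivin), its targeting subunit, had scaled signals of 2526 and 2549 in Atoh1-GFP cells against 5160 and 4682 in dNeurog1-GFP cells, giving a log2 difference of -0.95 (SE 0.11, adjusted p = 0.012). This was the smallest adjusted p of the set. Aurkb, its kinase, had 886 and 964 in Atoh1-GFP cells against 1503 and 1580 in dNeurog1-GFP cells, giving a log2 difference of -0.72 (SE 0.12, adjusted p = 0.031). The scaffold Incenp (-0.49, adjusted p = 0.094) and borealin, Cdca8 (-0.52, adjusted p = 0.060), missed the threshold. Cdca8 read 7771 and 6084 in Atoh1-GFP cells against 11299 and 8570 in dNeurog1-GFP cells. Other probe sets of both genes gave larger gaps, -1.05 and -0.61 for Cdca8 and -0.71 and -0.55 for Incenp.

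**Figure D2:**
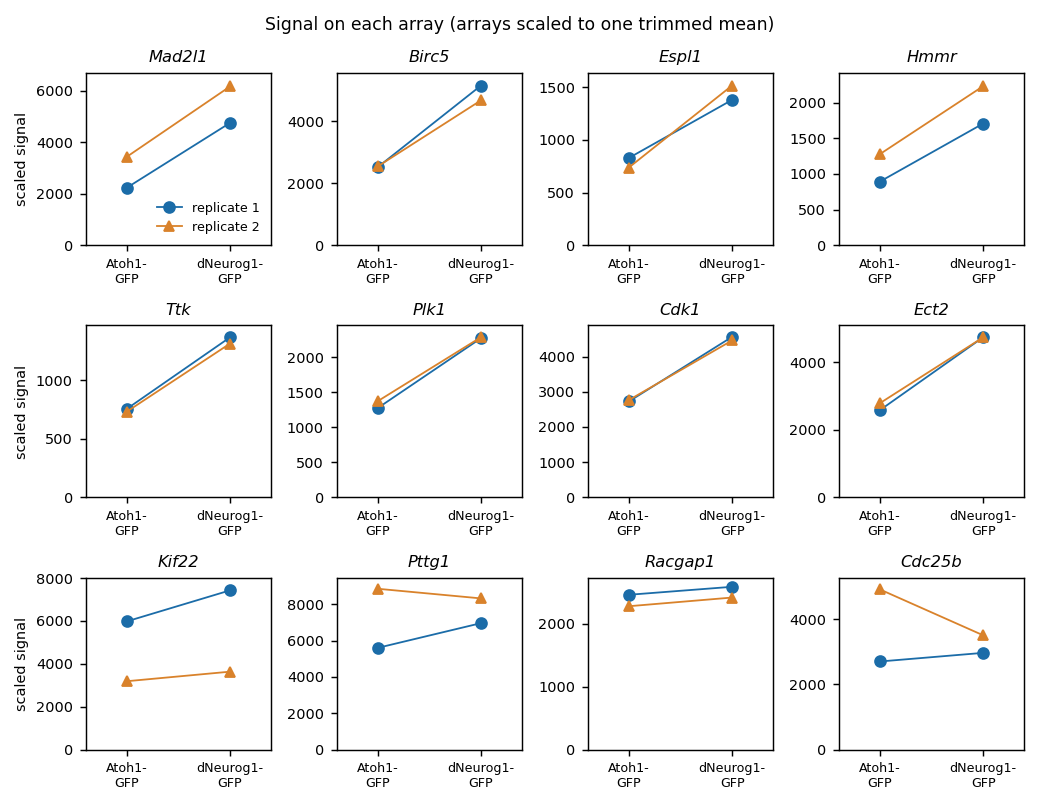
Scaled signal (y axis, from 0) on each array for 12 genes, with Atoh1-GFP left and dNeurog1-GFP right in each panel and a line for each replicate number. The 8 genes of the upper rows are lower in Atoh1-GFP cells in both replicates, while in the bottom row the populations overlap.

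Of the 7 tested kinesins, the microtubule motors of the spindle, 2 passed, and the median was -0.60. Kif11 (Eg5), which pushes the spindle poles apart, had scaled signals of 1270 and 867 in Atoh1-GFP cells against 2284 and 1448 in dNeurog1-GFP cells, giving a log2 difference of -0.77 (SE 0.12, adjusted p = 0.025). Kif2c (MCAK), which depolymerises microtubules at kinetochores, had 2017 and 1940 in Atoh1-GFP cells against 3267 and 2786 in dNeurog1-GFP cells, giving a log2 difference of -0.60 (SE 0.12, adjusted p = 0.041). Kif20b, a motor of cytokinesis, had 846 and 658 in Atoh1-GFP cells against 1257 and 1114 in dNeurog1-GFP cells, giving a log2 difference of -0.64 that just missed the threshold (SE 0.14, adjusted p = 0.051). None of these 3 genes had overlapping populations, but the value of Kif11 was -0.51 without the Atoh1-GFP replicate 2 array and -0.45 without the dNeurog1-GFP replicate 1 array. Kif20a (-0.61, adjusted p = 0.078), of the central spindle, did not pass either.

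Kif23, Kif4 and Kif22 were the kinesins whose populations overlapped, with differences of -0.46, -0.34 and -0.25. In each the replicate 1 array read higher than the replicate 2 array of the same population, and within both replicate numbers Atoh1-GFP was the lower population. Kif22 (Kid), a motor that pushes chromosome arms outwards, had 5980 and 3191 in Atoh1-GFP cells against 7425 and 3636 in dNeurog1-GFP cells (adjusted p = 0.26). Its other probe sets gave larger gaps: one had 417 and 401 in Atoh1-GFP cells against 732 and 673 in dNeurog1-GFP cells (-0.74), and the other 1017 and 1236 in Atoh1-GFP cells against 1685 and 2068 in dNeurog1-GFP cells (-0.72). The value of Kif22 thus depended on the probe set, as did those of some genes that passed. Kif15, below the filter, had 121 and 8.01 in Atoh1-GFP cells against 14.2 and 22.1 in dNeurog1-GFP cells, and its replicates went opposite ways.

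All 4 spindle-associated proteins passed, with a median of -0.62. Hmmr, a spindle pole protein, had 892 and 1277 in Atoh1-GFP cells against 1705 and 2229 in dNeurog1-GFP cells, giving a log2 difference of -0.85 (SE 0.12, adjusted p = 0.019). Prc1, which bundles the microtubules of the central spindle, had 2161 and 2034 in Atoh1-GFP cells against 3416 and 3148 in dNeurog1-GFP cells, giving a log2 difference of -0.64 (SE 0.11, adjusted p = 0.031). Tpx2, the activator of Aurora A on the spindle, had 1721 and 1769 in Atoh1-GFP cells against 2759 and 2567 in dNeurog1-GFP cells, giving a log2 difference of -0.60 (SE 0.12, adjusted p = 0.041). The populations were apart in all of them, and Nusap1, which stabilises spindle microtubules, followed at -0.55.

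On the probe sets used, anaphase genes had the smallest median of the groups, -0.44, with -0.59 within replicate 1 and -0.30 within replicate 2. Of the 4 genes, 1 passed. That ranking depends on the probe sets: others gave -0.63 and -0.55 for Cdc20 (-0.41 on the one used) and -0.39 and -0.01 for Pttg1. Espl1 (separase), the protease that cuts cohesin, had scaled signals of 829 and 738 in Atoh1-GFP cells against 1380 and 1516 in dNeurog1-GFP cells, giving a log2 difference of -0.86 (SE 0.14, adjusted p = 0.027). Pttg1 (securin), the inhibitor that keeps separase inactive, had 5599 and 8846 in Atoh1-GFP cells against 6958 and 8317 in dNeurog1-GFP cells, giving a log2 difference of -0.11 (SE 0.14, adjusted p = 0.69). Espl1 was lower in Atoh1-GFP cells in both replicates, while Pttg1 overlapped and was -0.31 within replicate 1 and 0.09 within replicate 2. Its sign turned without the Atoh1-GFP replicate 1 array (0.22) and without the dNeurog1-GFP replicate 2 array (0.02). The difference between the 2 genes was not tested.

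Ube2c, the ubiquitin-conjugating enzyme of the anaphase-promoting complex, had 4480 and 6118 in Atoh1-GFP cells against 6691 and 7924 in dNeurog1-GFP cells, giving a log2 difference of -0.47 (SE 0.12, adjusted p = 0.080). Cdc20, its activator, had 6345 and 8403 in Atoh1-GFP cells against 9657 and 9795 in dNeurog1-GFP cells, giving a log2 difference of -0.41 (SE 0.14, adjusted p = 0.15). Neither had overlapping populations, and both gaps were wider within replicate 1 (-0.58 and -0.60) than within replicate 2 (-0.37 and -0.22). Of 15 listed genes of the anaphase-promoting complex and its partners, 1 passed and the median was -0.04. The gene that passed was Fbxo5 (Emi1, -0.92, adjusted p = 0.016), which inhibits the complex before mitosis.

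Among the cytokinesis genes, 2 of 3 passed. Ect2, the exchange factor that activates RhoA at the cleavage furrow, had 2584 and 2791 in Atoh1-GFP cells against 4741 and 4738 in dNeurog1-GFP cells, giving a log2 difference of -0.81 (SE 0.11, adjusted p = 0.017). Anln (anillin), the scaffold of the contractile ring, had 998 and 1063 in Atoh1-GFP cells against 1661 and 1970 in dNeurog1-GFP cells, giving a log2 difference of -0.79 (SE 0.12, adjusted p = 0.024). Racgap1, the binding partner of Ect2 in the centralspindlin complex, had 2461 and 2279 in Atoh1-GFP cells against 2588 and 2417 in dNeurog1-GFP cells, giving a log2 difference of -0.08 (SE 0.11, adjusted p = 0.73). Its populations overlapped in both probe sets above the filter, and its difference from Ect2 and Anln was not tested. Kif23, the motor of centralspindlin, had -0.46.

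The condensin subunits and the chromosome proteins Top2a and Mki67 had no overlap in any of 7 genes, a median of -0.48, and 2 passed. The condensin I subunits Ncaph and Ncapg were those. Ncaph had 1944 and 2471 in Atoh1-GFP cells against 3274 and 3489 in dNeurog1-GFP cells (-0.62, SE 0.12, adjusted p = 0.042). Ncapg had 877 and 1109 in Atoh1-GFP cells against 1344 and 1739 in dNeurog1-GFP cells (-0.62, SE 0.12, adjusted p = 0.044). The condensin ATPases Smc4 and Smc2, which both condensins share, were near the threshold (-0.52 and -0.48, adjusted p = 0.056 and 0.063). Smc4 read 4499 and 4756 in Atoh1-GFP cells against 6723 and 6562 in dNeurog1-GFP cells. Ncapd2, another subunit of condensin I, had -0.46 (adjusted p = 0.073).

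On the probe sets used, Top2a and Mki67, both used to mark dividing cells, had the smallest differences of the 7 genes. This order depends on the probe sets: others gave -0.20 for Ncapd2, -0.34 for Ncapg and -0.49 for Top2a. Those of Smc4 gave -0.93 and -0.41, those of Smc2 -0.69 and -0.51, and that of Ncaph -0.69. Top2a, the topoisomerase that untangles sister chromatids, had 7013 and 7411 in Atoh1-GFP cells against 9475 and 9974 in dNeurog1-GFP cells, giving a log2 difference of -0.43 (SE 0.12, adjusted p = 0.093) that was -0.43 within both replicate numbers. Mki67, the Ki-67 protein of the chromosome surface, had 4888 and 5610 in Atoh1-GFP cells against 7829 and 6278 in dNeurog1-GFP cells, giving a log2 difference of -0.42 (SE 0.15, adjusted p = 0.18), -0.68 within replicate 1 and -0.16 within replicate 2.

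**Figure D3:**
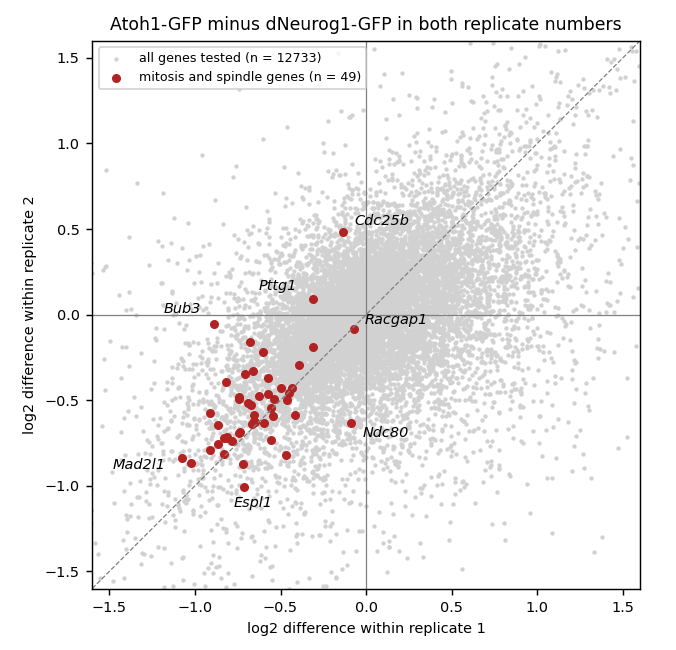
Log2 difference within replicate 1 (x axis) against within replicate 2 (y axis) for all genes tested (grey) and the 49 mitotic genes (red), with the line of equality dashed; genes beyond the axes are not drawn. The red points gather in the lower left, where both differences are negative, and Bub3 and Ndc80 lie close to an axis.

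The absolute gap between the differences within replicate 1 and within replicate 2 had a median of 0.12 over the 49 genes, against 0.25 over all genes tested, and reached 0.83 in Bub3. The part of signal level in this was not tested. Of the 49 genes, 32 had further probe sets above the filter, 52 in all. The other probe sets were negative in 46 cases and positive in 6, with a median of -0.50 and a range from -1.05 to 0.47. Among genes that passed, 1 other probe set of Kif2c was at 0.47, with positive differences in both replicates (0.39 and 0.55), and another was at 0.05. For Tpx2, 2 other probe sets were at 0.33 each, and for Kif11 and Ttk, 1 other probe set each was at 0.22 and 0.01. Each of these 4 genes but Ttk also had another probe set below 0, at -0.60 for Kif2c, -0.78 for Tpx2 and -0.77 for Kif11. The mean over all probe sets of a gene was -0.17 for Kif2c, -0.18 for Tpx2, -0.41 for Ttk and -0.44 for Kif11.

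**Figure D4:**
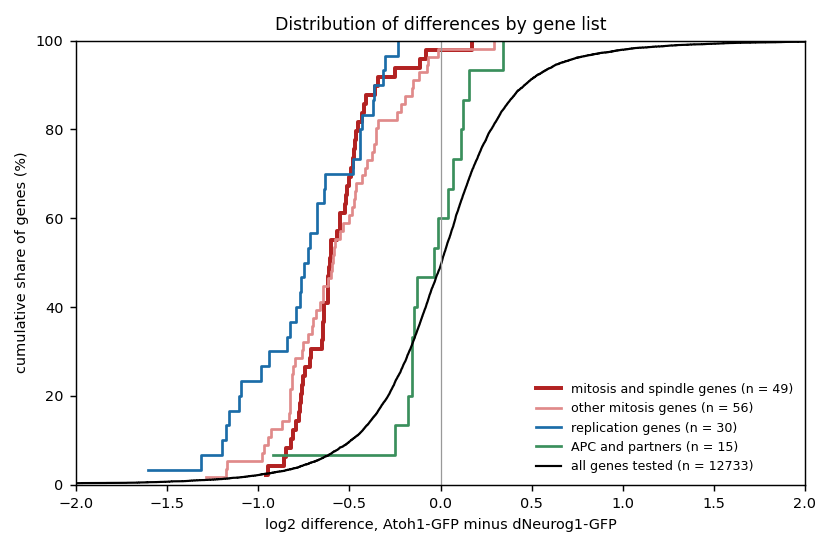
Cumulative share of genes (y axis, %) by log2 difference (x axis, Atoh1-GFP minus dNeurog1-GFP) for the mitotic set, 3 further lists and all genes tested. The mitotic, other mitosis and replication lists lie left of 0, with medians of -0.61, -0.59 and -0.74, and the anaphase-promoting complex list lies near all genes.

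Further mitosis genes outside the set gave similar values. Of 56 tested, 23 passed, all lower, with a median of -0.59, which was -0.60 and -0.56 within replicates 1 and 2. The largest differences were in Ncapg2 (-1.29), a subunit of condensin II, Cenph (-1.18), a protein of the inner kinetochore, and Depdc1b (-1.17). Replication genes, which act earlier in the cycle, had 17 of 30 lower with the block, 0 higher and a median of -0.74, led by the licensing factors Cdc6 (-1.61) and Cdt1 (-1.31) and by thymidine kinase, Tk1 (-1.20). The difference between the medians of the mitotic and replication genes was not tested.

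Of 16 regulators of cell cycle transcription, 4 passed, all lower: the repressors E2f7 (-0.97) and E2f8 (-0.97), the E2F partner Tfdp1 (-0.78) and the pocket protein Rbl1 (-0.77). E2f1, an activator of S phase genes, went the other way without passing: it had 1178 and 3072 in Atoh1-GFP cells against 1014 and 1134 in dNeurog1-GFP cells, so that both Atoh1-GFP arrays were higher, with a log2 difference of 0.81 (adjusted p = 0.15), 0.21 within replicate 1 and 1.41 within replicate 2. E2f2, another activator, had the largest difference of the list, -1.78 within replicate 1 and -0.72 within replicate 2 (adjusted p = 0.054). Foxm1 and Mybl2 (B-Myb), known as partners of MuvB, had -0.41 (adjusted p = 0.21) and -0.77 (adjusted p = 0.065). Foxm1 read 620 and 287 in Atoh1-GFP cells against 830 and 393 in dNeurog1-GFP cells, and Mybl2 299 and 254 in Atoh1-GFP cells against 544 and 449 in dNeurog1-GFP cells. Foxm1 overlapped between the populations, and Mybl2 did not.

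Markers of other cell states and types also differed between the arrays. The summed scaled signal of 12 progenitor markers was 45134 and 36671 in Atoh1-GFP cells against 65574 and 47685 in dNeurog1-GFP cells, and 6 of the 12 were lower with the block. Their median difference was -0.92, and 11 of the 12 were negative. Sox2, a progenitor factor, had a smaller difference of -0.11. The sum of 12 neuronal markers was 65561 and 67711 in Atoh1-GFP cells against 44464 and 59843 in dNeurog1-GFP cells, with 4 higher and 1 lower. Their median difference was 0.53, and 4 of the 12 were negative. Tubb3, the neuronal tubulin, had the highest difference of these markers, 1.01 (adjusted p = 0.012). The marker called lower was Nefm (-0.78, adjusted p = 0.024). The sum of the 6 tested red cell markers was 30692 and 31852 in Atoh1-GFP cells against 8130 and 23019 in dNeurog1-GFP cells, and that of 7 heart muscle markers 2001 and 4222 in Atoh1-GFP cells against 467 and 2164 in dNeurog1-GFP cells. For 7 endothelial markers it was 1987 and 978 in Atoh1-GFP cells against 820 and 749 in dNeurog1-GFP cells. The sum of 9 mesenchyme markers was 6953 and 5094 in Atoh1-GFP cells against 3376 and 7766 in dNeurog1-GFP cells, that of 8 ventral neural tube markers 891 and 605 in Atoh1-GFP cells against 767 and 2443 in dNeurog1-GFP cells, and that of 3 neural crest markers 739 and 634 in Atoh1-GFP cells against 285 and 1161 in dNeurog1-GFP cells. With the block, 2 heart muscle markers were higher and 1 ventral marker was lower. In the red cell, endothelial, mesenchyme and neural crest lists 0 passed. The part of all these markers in the mitotic differences was not tested.

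The ratio of 3′ to 5′ control signal was 0.87 and 1.19 in Atoh1-GFP cells against 0.84 and 0.97 in dNeurog1-GFP cells for Gapdh, and 1.81 and 3.26 in Atoh1-GFP cells against 1.92 and 2.55 in dNeurog1-GFP cells for beta-actin. For pyruvate carboxylase it was 0.86 and 5.98 in Atoh1-GFP cells against 1.00 and 5.76 in dNeurog1-GFP cells, and for the transferrin receptor 6.69 and 12.4 in Atoh1-GFP cells against 3.0 and 4.25 in dNeurog1-GFP cells. The part of RNA quality in the differences was not tested.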

How the data were processed

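RNA of sorted cells was measured on Affymetrix mouse arrays, 2 for each population. The deposited values are signal intensities on a linear scale made with MAS5, per the submitters' processing notes, with 1 value per probe set and array. No version or settings are given in the sources. Every array was scaled to a 2% trimmed mean of 500 over all 45101 probe sets. A gene was read by its single-symbol probe set of highest mean deposited signal and kept where the mean scaled signal reached the 40th percentile of non-control probe sets (63.5).

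Differences were computed on log2(scaled signal + 32), which understates changes of dim genes, and tested with limma 3.58.1 (lmFit, eBayes with trend) in R 4.3.3 over 12733 genes with Benjamini-Hochberg adjustment, once without a block and once with a block for the replicate number. The trimmed means of the deposited values differed by replicate number, which alone does not show a shared batch. The labels do not say what equal numbers share, and whether the arrays differ beyond technical spread is given only by the label of biological replicates. The deviations of same-numbered arrays from their population means correlated across genes at r = 0.66, over only 2 number pairs, which does not establish pairing. The fitting code was tested on simulated data, where the share of false calls exceeded the threshold in both models and was larger with the block. The number of arrays limits the precision.

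The genes, lists and tests were chosen with earlier results of these data known. Values on every array are given for the 3 largest differences of each role among genes that passed, filled up by size, and for genes that were higher, changed sign between replicates or fell below the filter. Bub3, Ndc80, Kif22, Cdc25a, Pkmyt1, E2f1, E2f2, Top2a, Mki67, Foxm1 and Mybl2 were added after their values were seen. Promoters are from RefSeq.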

Additional observations from a re-analysis of the deposited data

How the results depend on the processing

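Without a replicate block, 0 mitotic genes passed in any scaling, pseudocount, filter or probe set alternative, and 0 to 1 when 1 array was left out (Mad2l1, at -1.26, without the Atoh1-GFP replicate 2 array). With the replicate block 26 were lower, and 34 on the values as deposited. Over all genes, in either direction, 6.32% passed with the block and 9.17% with it on the values as deposited. Alternatives added after the data were seen, all with the block, gave 42 after quantile normalization, 29 after scaling to one 75th percentile, 29 with a pseudocount of 1, 29 with a larger one and 21 for the mean over all probe sets of a gene. The cause of the rise after quantile normalization was not tested. Over all genes 1831 (14.4%) passed there, against 805 (6.32%) with the block on scaled values. The 75th percentile gave 8.73%, the pseudocounts 6.93% and 6.9%, and the mean over probe sets 5.49%. None of the fits without the block, and neither fit with it on scaled or deposited values, called a mitotic gene higher. The median ran from -0.64 to -0.56 over all alternatives. Adding the block or changing the filter leaves a gene's difference unchanged, so those values could not turn. Of 686 values of single genes, those included, 681 kept their direction. The other 5 came from leaving out 1 array and belonged to Cdc25b (-0.25 to 0.60), Kif22 (-0.76 to 0.26) and Pttg1 (-0.44 to 0.22). Leaving out 1 array also moved values by over 1.5 times without turning them: among genes that passed with the block, Kif11 (-1.10 to -0.45) and Spc24 (-0.94 to -0.36), and among the others Bub3 (-0.87 to -0.07), Spc25 (-0.88 to -0.18), Incenp (-0.80 to -0.18), Ndc80, Cdc25c, Cdca8, Kif20a, Kif23, Kif4, Cdc20, Ube2c, Racgap1 and Mki67. The mean over probe sets did so for Kif2c, Tpx2, Ttk and Kif11 among genes that passed, and for Bub3, Kif22, Pttg1 and Racgap1. Leaving out an array with the block could not be fitted with any residual degree of freedom. Over all genes, leaving out 1 array without the block gave 156 to 380 calls, against 28, the mean over probe sets 14, no filter 14, scaling to one 75th percentile 18 and the filter at the 60th percentile 18. The values as deposited gave 13 (12 lower and 1 higher), against 12 lower and 16 higher after scaling, and the 75th percentile 11 lower and 7 higher.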
